A study of Arabidopsis thaliana with 9 samples.

Results

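The genes described here are 10 loci of the Arabidopsis thaliana cold response. They are the transcription factor genes CBF1 (AT4G25490), CBF2 (AT4G25470) and CBF3 (AT4G25480), and the cold and dehydration genes COR15A (AT2G42540), COR15B (AT2G42530), COR47 (AT1G20440), ERD10 (AT1G20450), KIN1 (AT5G15960), KIN2 (AT5G15970, also called COR6.6) and RD29A (AT5G52310). They were taken by locus identifier from a table of 33602 genes, in which all 10 were present. Polyadenylated RNA was measured in whole seedlings 6 days old, in 3 groups of 3 libraries. Col-0 seedlings received 5 µM jasmonate for 3 h (JA WT; micromolar is a reading of the labels' unit, µm), lhp1 seedlings received a mock solution of ethanol diluted 5000-fold (mock lhp1), and Col-0 seedlings received the same mock solution (mock WT). The mutant is called lhp1 in the labels and lhp1-3 in the column names. The labels name no cold treatment. LHP1 is a chromodomain protein that binds the Polycomb histone mark, and JAZ proteins are the repressors that jasmonate removes.

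CBF proteins are AP2-type transcription activators that are made soon after a drop in temperature. They bind the C-repeat, a short DNA element in front of COR genes, and COR proteins are hydrophilic proteins that protect membranes and enzymes when cells lose water. CBF genes are themselves driven by the bHLH protein ICE1 and by CAMTA factors, and in Arabidopsis the jasmonate repressors JAZ1 and JAZ4 bind ICE1 and restrain it. Many COR genes also respond to abscisic acid through ABRE elements, and the G-box is an element bound by bHLH factors such as MYC2 and by bZIP factors.

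Total counts lay between 18081553 and 31454984 per library, the mock lhp1 libraries being the shallowest. Levels are given in CPM, counts scaled to a common library size with TMM factors. Mock WT replicate 2 stood apart: on the first principal component (60.6% of the variance) it lay at 29.2, the other mock WT libraries at −9.44 and −11.7, mock lhp1 at 55.3 to 58.1 and JA WT at −60.7 to −57.9. It was kept in every test, and values without it are given where it matters. Because it was picked out on its values, dropping it widens the mock lhp1 changes of any gene for which it lay toward mock lhp1. The jasmonate gene JAZ10 stood at 100 to 106 CPM in JA WT and 2.56 to 3.14 CPM in mock WT, and LHP1 at 8.33 to 10.2 CPM in mock lhp1 and 13.9 to 20.7 CPM in mock WT, so transcripts of LHP1 were still counted in the mutant. The jasmonate gene VSP2 stood at 47.6 to 59.6 CPM in JA WT, 2.93 to 5.00 CPM in mock lhp1 and 0.264 to 1.99 CPM in mock WT, and was called higher than in mock WT in both.

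Markers of shoot and root tissue were present in all libraries. The summed level of 4 shoot markers (RBCS1A, RBCS3B, LHCB2.1 and LHCA1) was 22521 to 23148 CPM in JA WT, 9499 to 9790 CPM in mock lhp1 and 16967 to 24125 CPM in mock WT. All 4 were called lower in mock lhp1 than in mock WT. The sum of 4 root markers was 4652 to 4828 CPM in JA WT, 4751 to 5135 CPM in mock lhp1 and 2925 to 4127 CPM in mock WT. Most of it was PYK10, called higher in JA WT (a call lost without JA WT replicate 1 or 2; a lost call is an adjusted p of 0.05 or above, not the absence of a change) and in mock lhp1 than in mock WT, while SCR, SHR and WOX5 were not called. In bulk RNA, more cells of a type and more RNA per cell cannot be told apart, and the part of tissue makeup in the changes of the COR genes was not tested. The sum of 5 seed and embryo markers was 0.588 to 1.08 CPM in JA WT, 0.0981 to 1.87 CPM in mock lhp1 and 0.113 to 0.217 CPM in mock WT, with OLEO1, EM1 and EM6 at 0 to 2 counts in every library. Of the other 2, the seed storage gene SESA1 had 14, 19 and 15 counts in JA WT. It had 1, 3 and 1 in mock lhp1 and 0, 0 and 2 in mock WT. SESA1 was called higher in JA WT (edgeR adjusted p = 0.00176). It passed the filter on low counts only through the JA WT libraries, where it was high, so this call is no separate support for a rise. The storage gene CRA1 had 2, 3 and 2 counts in JA WT, 1, 30 and 17 in mock lhp1 and 2, 4 and 1 in mock WT, and was not tested. The part of seed RNA in the changes of the COR genes was not tested.

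Apart from RD29A, each of these loci lies beside a related one of the set. On the RefSeq annotation of TAIR10.1, CBF2 (chromosome 4, 13015250–13016235), CBF3 (13018010–13019400) and CBF1 (13021780–13022996) follow each other on the minus strand, and each pair shares 87.3% to 87.5% of aligned coding bases. COR15B (chromosome 2, 17708593–17710433) lies 7 bases from COR15A (17710441–17712330), with 83.8% coding identity. COR47 (chromosome 1, 7084409–7086873) and ERD10 (7087903–7089606) lie 1029 bases apart with 82.3% identity. KIN1 (chromosome 5, 5209717–5210826) and KIN2 (5211719–5212743) lie 892 bases apart with 95.02% identity. RD29A occupies chromosome 5, 21240717–21243644. Of all 50-base stretches of a member's transcript, at most 3.10% occur unchanged in that of a paired relative, and the longest shared run is 68 bases, between CBF2 and CBF1. The sources used here do not give how reads with several matches were counted, so levels within a pair may be split unevenly. COR15B overlaps the gene AT2G42520 on the other strand by 468 bases, and whether counting used the strand is not given either.

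The C-repeat core CCGAC, searched on both strands in the 500 bases before the start codon, was found at all 7 COR loci and at none of the CBF loci. Of 27443 protein-coding genes 23.3% hold it in such a window. Annotated gene starts lie 149 to 1209 bases before the start codon, so the windows hold transcribed leader as well as upstream sequence, and those of COR47 and COR15B lie wholly within the annotated gene. ERD10 holds 3 overlapping copies of the core and RD29A 4 separate ones. One site per COR gene is shown because it is the element that defines the family, with the core in capitals and the gene's own strand read 5′ to 3′ (TAIR10.1).

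COR15A, chr2:17712218-17712242: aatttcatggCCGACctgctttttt
COR15B, chr2:17710124-17710148: aacttgatggCCGACctcttttttc
COR47, chr1:7085918-7085942: tattcatctaCCGACttcaagaaat
ERD10, chr1:7089367-7089391: catccaccgaCCGACcgacgtaaaa
KIN1, chr5:5209804-5209828: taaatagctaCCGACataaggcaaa
KIN2, chr5:5211771-5211795: taaaaagctaCCGACataaggcaaa
RD29A, chr5:21240674-21240698: agatatactaCCGACatgagttcca

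The G-box CACGTG reads the same on both strands and contains the ABRE core ACGTG on each, so each G-box also counts as 2 overlapping ABRE matches. It was found 2 times before KIN1 and 3 times before KIN2, 2 times before COR15A, and 1 time before COR15B, CBF1 and CBF2. It was not found in the windows of COR47, ERD10, RD29A and CBF3. In all, 6 of the 10 windows hold it, against 9.30% of protein-coding genes, and 9 of 10 hold the ABRE core, against 34.8%. A match is a run of letters and not a measured binding site. The CAMTA core CGCGT was found before COR47, ERD10, RD29A and CBF2 and not before KIN1 or KIN2, in 4 of 10 windows against 13.4%. The evening element AAAATATCT was found before COR15A, COR15B, KIN2 and CBF3, in 4 of 10 against 4.02%. Related neighbours such as KIN1 and KIN2 hold similar sites, so the 10 windows are not independent and the shares do not test enrichment. Whether any of the matches bears on the changes was not tested. The G-box sites of the KIN pair were chosen for display after the changes were known (G-box in capitals).

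KIN1, chr5:5209771-5209796: actaaaacgaCACGTGaagtcttgat
KIN1, chr5:5209844-5209869: aaatgtaatcCACGTGgttttagatt
KIN2, chr5:5211738-5211763: actaaaacgaCACGTGatgtcttgat
KIN2, chr5:5211811-5211836: aaacgtaatcCACGTGgtttcagatt
KIN2, chr5:5211828-5211853: tttcagattaCACGTGgcaccacaca

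**Figure D1:**
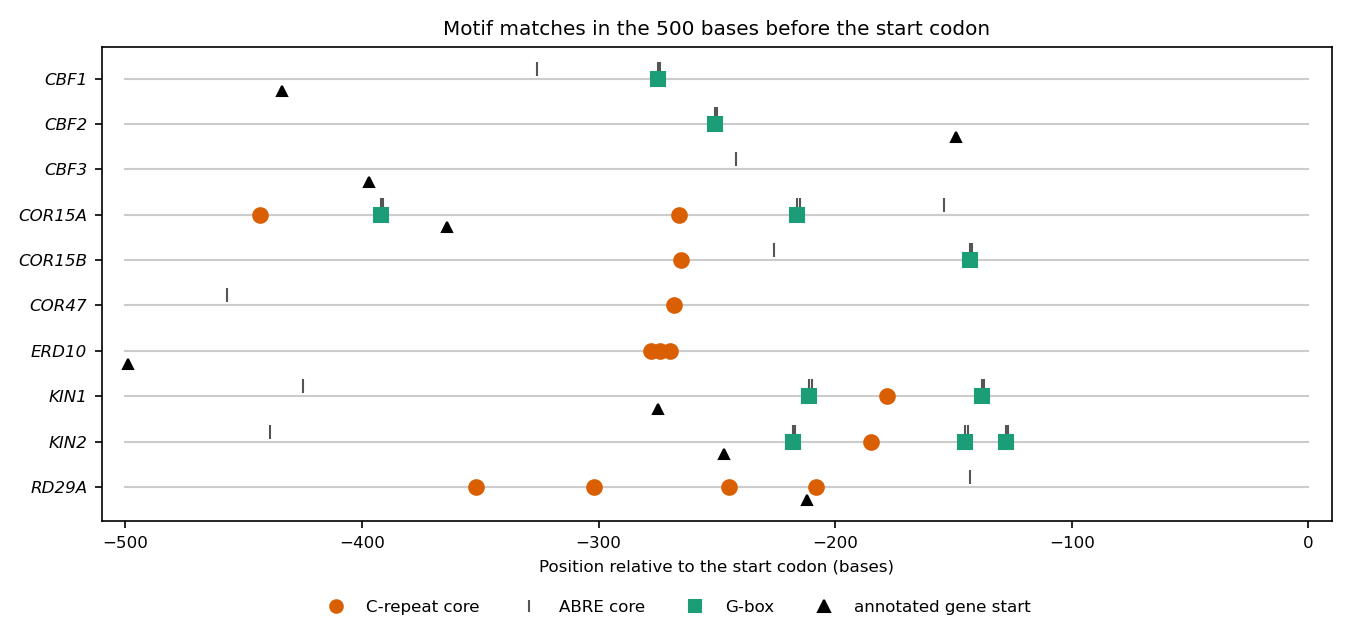
Matches to the C-repeat core (circles), the ABRE core (ticks) and the G-box (squares) in the 500 bases before the start codon of each gene, by distance from the start codon in bases; triangles mark the annotated gene start where it lies inside the window. All 7 COR genes carry a C-repeat core. KIN2 carries 3 G-boxes, KIN1 and COR15A 2 each, COR15B, CBF1 and CBF2 1 each, and COR47, ERD10, RD29A and CBF3 none. Whether the matches bear on the changes was not tested. The CAMTA core and the evening element are not drawn.

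The CBF genes were near the limit of detection in every group. CBF1 had 3, 0 and 4 counts in JA WT, 0, 0 and 0 in mock lhp1, and 3, 4 and 9 in mock WT. CBF3 had 1, 3 and 1 counts in JA WT, 4, 4 and 1 in mock lhp1, and 5, 3 and 1 in mock WT. CBF2, which in Arabidopsis restrains CBF1 and CBF3, was the most counted with 12, 16 and 17 in JA WT, 2, 5 and 11 in mock lhp1, and 21, 10 and 14 in mock WT. No CBF library exceeded 21 counts, so changes in these genes could be seen only if they were large.

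CBF1, CBF3 and COR15B did not pass the filter on low counts and were not tested, which left 7 of the 10 genes. Scaled to library size, CBF1 in JA WT was 0.471 times its mock WT level (95% exact counting interval 0.164 to 1.21), and CBF3 was 0.598 times (0.157 to 1.99). In mock lhp1 CBF1 had 0 counts over the group against 16 in mock WT, for which the interval allows up to 0.322 times the mock WT level, and CBF3 was 1.24 times the mock WT level (0.436 to 3.53). The intervals cover counting error only. With no filter on low counts CBF1 was called lower in mock lhp1 (edgeR adjusted p = 0.0335), a call that rests on those 16 counts and for which DESeq2 gave no adjusted p. CBF2 differed by 0.10 ± 0.45 on the log2 scale in JA WT against mock WT (edgeR adjusted p = 0.916). In mock lhp1 against mock WT it differed by −1.02 ± 0.52 (edgeR adjusted p = 0.175). For log2 changes, ± is an approximate standard error derived from the F statistic throughout. CBF2 values of the groups overlapped in both comparisons.

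The genes differed widely in level, and ± in this paragraph is the SD of 3 libraries. Per kilobase of exon, mock WT means were 142 ± 36.2 CPM per kb for COR47 and 88.4 ± 20.7 for ERD10 (SD, n = 3), followed by KIN2 at 24.8 ± 9.81 and RD29A at 16.6 ± 3.47. KIN1 stood at 1.50 ± 0.651, COR15A at 0.835 ± 1.07, CBF2 at 0.598 ± 0.268, CBF1 at 0.167 ± 0.0973, CBF3 at 0.0852 ± 0.0620 and COR15B at 0.0593 ± 0.0671 CPM per kb. KIN2 and RD29A, KIN1 and COR15A, COR15A and CBF2, and the 3 lowest genes overlapped between neighbours over the mock WT libraries. In JA WT the top of the order closed up, with COR47 at 72.2 ± 2.86, KIN2 at 64.6 ± 6.51 and ERD10 at 53.3 ± 8.60 CPM per kb. COR47 overlapped KIN2 there, as KIN2 did ERD10. In mock lhp1 COR47 stood at 213 ± 1.70, ERD10 at 148 ± 3.44 and KIN2 at 49.5 ± 3.19 CPM per kb, with no overlap.

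**Figure D2:**
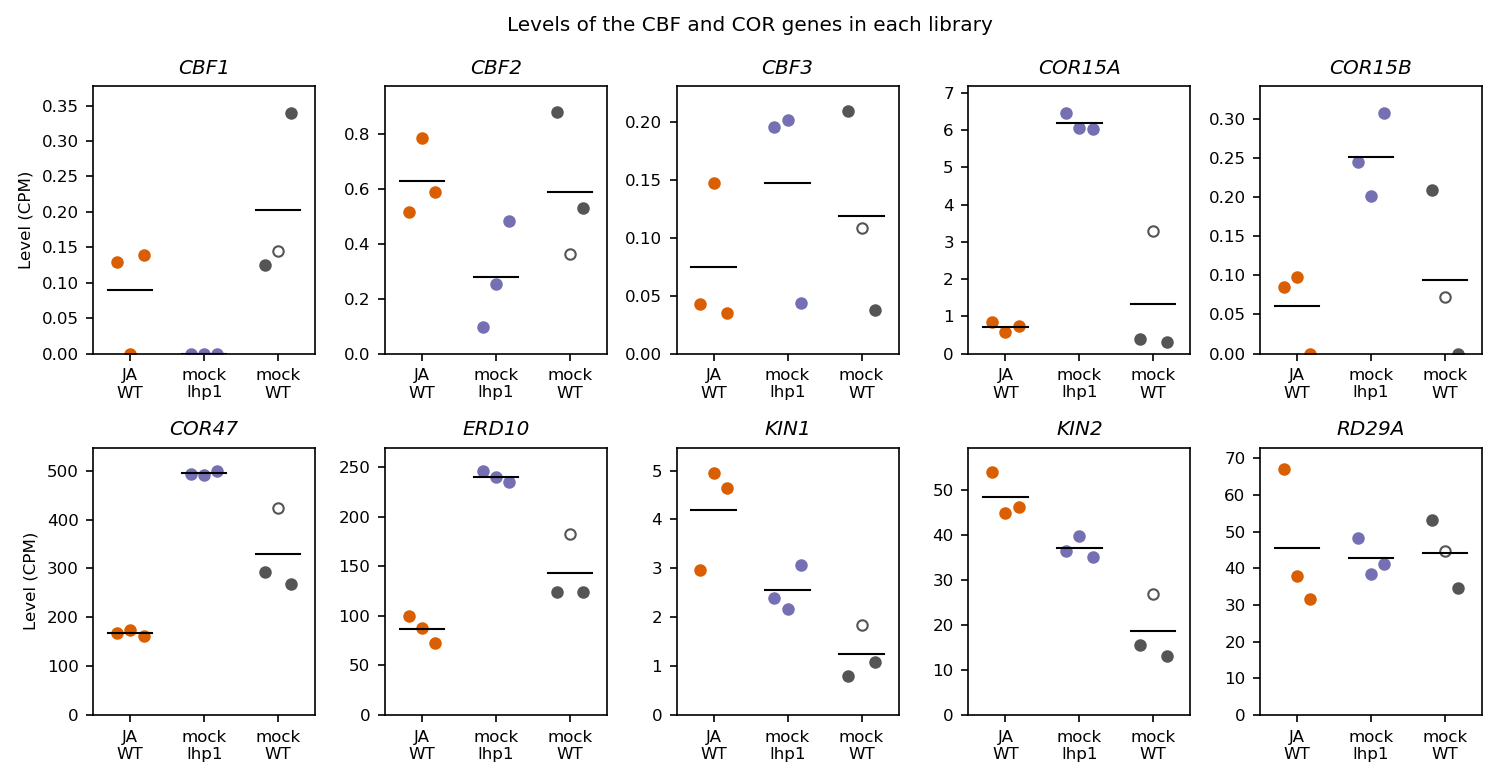
Level of each of the 10 genes in CPM in each library, on a linear axis from 0 that differs between panels; points are libraries, lines are group means, and the open point is mock WT replicate 2. COR47 and ERD10 are lowest in JA WT and highest in mock lhp1, KIN1 and KIN2 are lowest in mock WT, and CBF1 is at 0 in all 3 mock lhp1 libraries.

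After jasmonate 2 pairs of COR genes moved in opposite directions, and no other tested member was called. The dehydrin genes COR47 and ERD10, which encode acidic proteins of dehydrated cells, fell, and KIN1 and KIN2, which encode small alanine-rich hydrophilic proteins, rose. Of 7 tested genes, 2 were higher and 2 lower in JA WT than in mock WT, where 15.7% of 20986 tested genes were called in either direction (8.62% higher and 7.07% lower; edgeR's quasi-likelihood test, Benjamini-Hochberg adjusted p below 0.05). The groups did not overlap for these 4 genes, as for 30.1% of all tested genes. The median log2 change of the 7 was 0.04 (−0.08 when scaled to total counts), and that of all tested genes 0.00.

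COR47 had 168, 174 and 161 CPM in JA WT and 293, 425 and 269 CPM in mock WT. The JA WT libraries all lay below the mock WT libraries, of which replicate 2 was the highest. The log2 fold change was −0.97 ± 0.14 (edgeR adjusted p = 5.39e-04), which is 0.510 times the mock WT level. ERD10 had 100, 87.3 and 72.2 CPM in JA WT and 124, 182 and 124 CPM in mock WT, again without overlap. It fell by 0.73 on the log2 scale, with a standard error of 0.15 (edgeR adjusted p = 0.00671). Both falls were smaller without mock WT replicate 2 and were still called, at −0.75 (edgeR adjusted p = 9.99e-06) and −0.52 (edgeR adjusted p = 0.00603).

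KIN2 had 54.0, 45.0 and 46.3 CPM in JA WT and 15.6, 27.0 and 13.2 CPM in mock WT. Every JA WT library lay above every mock WT library. The log2 fold change was 1.38 ± 0.21 (edgeR adjusted p = 7.77e-04), a 2.60-fold rise, and 1.75 without mock WT replicate 2. KIN1 had 2.96, 4.95 and 4.64 CPM in JA WT and 0.796, 1.84 and 1.09 CPM in mock WT. It rose by 1.73 ± 0.30 on the log2 scale (edgeR adjusted p = 0.00224), a 3.32-fold rise, and 2.13 without mock WT replicate 2. All 4 calls held in each of the 9 fits that left out 1 library.

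RD29A, a classical cold, drought and abscisic acid marker, differed by 0.04 ± 0.24 after jasmonate (edgeR adjusted p = 0.932). It had 67.1, 37.9 and 31.6 CPM in JA WT and 53.1, 44.7 and 34.7 CPM in mock WT. The JA WT values spanned the mock WT range, and replicate 1 was the highest of the 9 libraries.

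COR15A, whose product protects chloroplast membranes, had 0.857, 0.589 and 0.727 CPM in JA WT and 0.377, 3.29 and 0.302 CPM in mock WT. Mock WT replicate 2 alone lay above the JA WT libraries. The log2 fold change was −0.89 ± 0.72 (edgeR adjusted p = 0.463). Dropping that library turned it to 1.10 with an edgeR adjusted p of 0.0421, so no direction can be given. COR15B had 2, 2 and 0 counts in JA WT and 5, 2 and 0 in mock WT, or 0.615 times the mock WT level (95% exact counting interval 0.132 to 2.42).

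In lhp1 seedlings under mock treatment most of the tested COR genes were higher, and RD29A was not called. COR15A, COR47, ERD10, KIN1 and KIN2 were called higher than in mock WT and no member was called lower, 5 of 7 tested genes, where 25.5% of tested genes were called (11.1% higher and 14.4% lower). These 5 genes had no overlap between the groups, which held for 44.6% of all tested genes. The median log2 change of the 7 was 0.74, and that of all tested genes 0.00. The count was 3 when any 1 mock lhp1 library was left out, and 4 without mock WT replicate 1 or replicate 3.

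COR15A had 6.47, 6.06 and 6.02 CPM in mock lhp1 and 0.377, 3.29 and 0.302 CPM in mock WT. The mutant libraries lay close together and above mock WT replicate 2, which stood between them and the other mock WT libraries. The log2 fold change was 2.19 ± 0.59 (edgeR adjusted p = 0.0202), a 4.56-fold rise. Without mock lhp1 replicate 1, 2 or 3 the change stayed at 2.16, 2.21 and 2.21 but was no longer called (edgeR adjusted p = 0.0633, 0.0596 and 0.0561). It was 4.17 without mock WT replicate 2 (edgeR adjusted p = 6.08e-07). COR15B had 5, 4 and 7 counts in mock lhp1 and 5, 2 and 0 in mock WT. It was 2.84 times the mock WT level (interval 1.10 to 8.15), and the scaled values of the groups overlapped.

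COR47 had 494, 492 and 500 CPM in mock lhp1 and 293, 425 and 269 CPM in mock WT. The log2 fold change was 0.59 ± 0.14 (edgeR adjusted p = 0.0102), a 1.51-fold rise, with no overlap between the groups. ERD10 had 246, 240 and 235 CPM in mock lhp1 and 124, 182 and 124 CPM in mock WT. It rose by 0.74 ± 0.15 (edgeR adjusted p = 0.00529). The change of COR47 was 0.82 and that of ERD10 0.95 when mock WT replicate 2 was dropped.

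KIN2 had 36.3, 39.8 and 35.2 CPM in mock lhp1 and 15.6, 27.0 and 13.2 CPM in mock WT. It rose by 0.99 ± 0.21 on the log2 scale (edgeR adjusted p = 0.00607) and the groups did not overlap. The rise was 1.36 when mock WT replicate 2 was dropped. KIN1 had 2.40, 2.17 and 3.08 CPM in mock lhp1 and 0.796, 1.84 and 1.09 CPM in mock WT. Its log2 fold change was 1.02 ± 0.31 (edgeR adjusted p = 0.0349), a call lost without any 1 mock lhp1 library or without mock WT replicate 1 or 3. RD29A had 48.3, 38.5 and 41.3 CPM in mock lhp1 and 53.1, 44.7 and 34.7 CPM in mock WT, and differed by −0.05 ± 0.24 (edgeR adjusted p = 0.908).

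**Figure D3:**
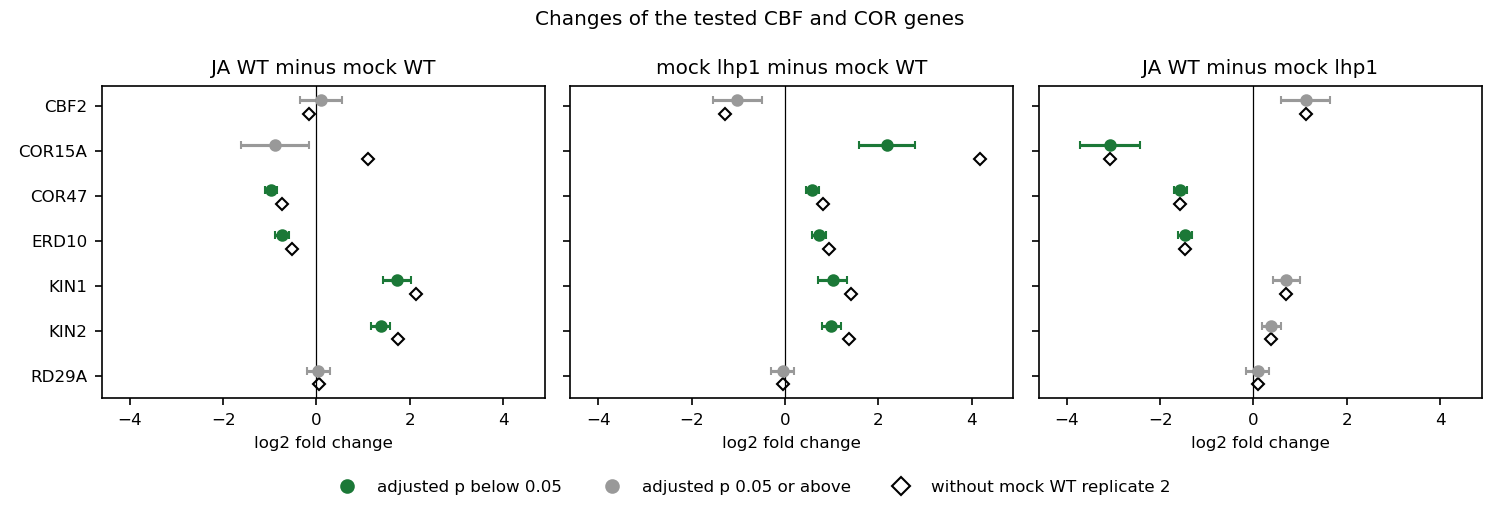
Log2 fold changes of the 7 tested genes in 3 comparisons; circles with bars show the change and its approximate standard error, green where the edgeR adjusted p was below 0.05, and diamonds the change without mock WT replicate 2. COR47 and ERD10 are below 0 in JA WT and above 0 in mock lhp1 against mock WT, KIN1 and KIN2 are above 0 in both, and COR15A changes sign after jasmonate without that library.

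Both comparisons with mock WT share the mock WT libraries. The direct comparison of JA WT with mock lhp1, which differ in both treatment and genotype, takes no group mean from them. They still enter it through the filter on low counts, the scaling factors and the common estimate of spread. In this comparison 3 of 7 tested genes were called, all lower in JA WT, where 45.4% of tested genes were called (25.1% higher and 20.3% lower). The log2 fold change of COR47 was −1.56 ± 0.14 (edgeR adjusted p = 1.24e-05), that of ERD10 −1.47 ± 0.15 (edgeR adjusted p = 3.16e-05) and that of COR15A −3.08 ± 0.65 (edgeR adjusted p = 0.00281). With these, CBF2 and KIN2 made 5 of 7 genes whose groups did not overlap, against 60.2% of all tested genes. KIN1 (0.71 ± 0.29, edgeR adjusted p = 0.0633) and KIN2 (0.39 ± 0.20, edgeR adjusted p = 0.139) were not called. Without mock WT replicate 2, or with only these 6 libraries in the fit, both KIN genes were called higher in JA WT, which made 5 calls. CBF2 differed by 1.12 ± 0.52 (edgeR adjusted p = 0.103), and its JA WT values of 0.514 to 0.785 CPM lay above its mock lhp1 values of 0.0981 to 0.484 CPM.

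Profiles over the 9 libraries were compared by the root mean square difference of log2 CPM, each centred on its mean. Among the 4 members with a mean of at least 5 CPM, COR47 and ERD10 were the closest pair, at 0.140, and the other pairs lay between 0.671 and 1.04. The nearest genes outside the 10 loci were AT1G20070 (0.0974) and SCPL51 (0.106) for COR47, AT3G62280 (0.0857) and SCPL51 (0.134) for ERD10, and the dehydroascorbate reductase gene DHAR1 (0.0749) and AT5G02230 (0.140) for KIN2. DHAR1 averaged 445 CPM in JA WT, 337 CPM in mock lhp1 and 175 CPM in mock WT. For RD29A they were AT5G01790 (0.117) and TBL41 (0.167).

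Upstream of the CBF genes, the jasmonate repressor JAZ1 changed most after jasmonate. Of all tested genes 8.62% were called higher and 7.07% lower in JA WT than in mock WT. Of 10 activators of CBF genes 2 were lower and none higher in JA WT. These were the clock genes CCA1 (−0.38 ± 0.09, edgeR adjusted p = 0.0124) and RVE4 (−0.29, lost without JA WT replicate 1 or 2 or mock WT replicate 1). ICE1 differed by 0.08 ± 0.09 (edgeR adjusted p = 0.577) and CAMTA3 by 0.08 ± 0.08 (edgeR adjusted p = 0.545). Of 13 repressors of CBF genes or of ICE1, 3 were higher and 1 lower. JAZ1 rose to 311, 267 and 255 CPM in JA WT, against 29.8, 26.0 and 22.1 CPM in mock WT (3.42 ± 0.11, edgeR adjusted p = 1.27e-08). JAZ4, which also restrains ICE1, differed by 0.16 ± 0.19 (edgeR adjusted p = 0.628). These are transcript levels, and JAZ protein, which jasmonate removes, was not measured. PIF3 (0.54, lost without JA WT replicate 1 or 3, mock lhp1 replicate 1 or mock WT replicate 3) and EIN3 (0.22, lost without any 1 JA WT library or mock WT replicate 3) were higher. PRR9 (−0.39, lost without JA WT replicate 2) was lower. MYB15, a MYB repressor of CBF genes, was at 1.86 to 2.79 CPM in JA WT and 0.544 to 1.63 CPM in mock WT (1.09 ± 0.34, edgeR adjusted p = 0.0519, and 0.00526 if mock WT replicate 2 was dropped).

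In mock lhp1, of the 10 activators 4 were lower than in mock WT and none higher (median −0.10, or 0.04 when scaled to total counts). Of all tested genes 14.4% were called lower there and 11.1% higher. ICE2, the closest relative of ICE1, stood at 16.6, 13.0 and 17.2 CPM in mock lhp1 and 29.7, 26.0 and 34.0 CPM in mock WT (−0.93 ± 0.12, edgeR adjusted p = 4.30e-04). The kinase gene OST1 (−0.36) lost its call without mock lhp1 replicate 2, and CAMTA1 (−0.26) without any 1 mock lhp1 library. ICE1 (−0.32) lost its call without any 1 mock lhp1 library or without mock WT replicate 1 or 3. Of the 13 repressors 3 were lower, PIF4 (−1.17 ± 0.13), PIF3 (−0.94 ± 0.15) and PRR7 (−0.41 ± 0.07). MYB15 alone was higher (1.05 ± 0.35, edgeR adjusted p = 0.0457), a call that was kept only without JA WT replicate 1 or mock WT replicate 2. JAZ1 was at 31.9, 33.2 and 32.3 CPM in mock lhp1, a difference of 0.32 ± 0.11 (edgeR adjusted p = 0.0502).

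Other factors that bind the same element were mostly low. Of 8 other DREB genes 5 could be tested, and CBF4, the drought-responsive CBF gene, had 1 count in 1 mock lhp1 library and 0 in the other 8 libraries. DEAR1, a repressor of the DREB family, was higher in JA WT (0.94 ± 0.26, lost without JA WT replicate 2 or 3 or mock WT replicate 1 or 3). DREB2A, which acts in drought and heat, differed by −0.27 ± 0.30 in JA WT (edgeR adjusted p = 0.602) and by 0.27 ± 0.29 in mock lhp1 (edgeR adjusted p = 0.526). In mock lhp1 none of the 5 was called, against 25.5% of all tested genes. Among 7 transcription factor genes that respond to cold at the same time as the CBF genes, 3 were higher and 1 lower in JA WT. The shares of all tested genes were 8.62% higher and 7.07% lower. The zinc finger gene ZAT10 rose to 15.1 to 17.3 CPM in JA WT, against 2.60 to 3.14 CPM in mock WT (2.44 ± 0.14, edgeR adjusted p = 3.08e-07). RAV1 rose by 0.69 ± 0.10 and HSFC1 fell by 0.86 on the log2 scale, while the ZAT12 call (0.55) was lost without any 1 JA WT library or mock WT replicate 1 or 3. In mock lhp1 RAV1 was lower (−0.94 ± 0.10), and CZF1 (0.45 ± 0.09) and ZAT12 (0.62 ± 0.15, lost without mock lhp1 replicate 1) were higher.

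Of 13 other cold-responsive effector genes 12 were tested, with 1 higher and 4 lower in JA WT and a median of −0.05. Among all tested genes 8.62% were higher and 7.07% lower. The galactinol synthase gene GOLS3, which serves raffinose synthesis in the cold, had 1.41, 1.81 and 1.04 CPM in JA WT and 5.90, 4.19 and 2.45 CPM in mock WT (−1.57 ± 0.32, edgeR adjusted p = 0.00661). LEA14 (−0.50 ± 0.10) and the membrane protein gene COR413PM1 (−0.42 ± 0.06) were lower too, and the fatty acid desaturase gene FAD8 was higher (0.57 ± 0.13). In mock lhp1 the median of the 12 was −0.03 (0.12 when scaled to total counts). There 2 were called lower and none higher, against 14.4% and 11.1% of all tested genes. The 2 were FAD8 (−0.93 ± 0.13) and COR413PM2 (−0.25). The COR413PM2 call was lost without JA WT replicate 2, any 1 mock lhp1 library or mock WT replicate 1 or 3. The dehydrin gene LTI30 was at 19.2 to 25.6 CPM in mock lhp1 and 8.50 to 20.8 CPM in mock WT, without a call (0.70). LTI30 was chosen after its values were seen, as a dehydrin gene like COR47 and ERD10, and was called without mock WT replicate 2 (1.11, edgeR adjusted p = 2.89e-04).

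Of 16 abscisic acid and dehydration genes 13 were tested, and in JA WT 2 were higher and 2 lower (median −0.21). Among all tested genes the shares were 8.62% and 7.07%. GOLS1, a galactinol synthase gene of heat and drought, rose to 24.2, 36.5 and 31.5 CPM in JA WT, against 4.27, 9.79 and 6.71 CPM in mock WT (2.14 ± 0.24, edgeR adjusted p = 9.63e-05). The dehydrin gene ERD14 (−0.44 ± 0.11, lost without JA WT replicate 2 or 3) and ABF3 (−0.33 ± 0.08) were lower. RD26 was higher (0.63), a call that was kept only without JA WT replicate 2 or mock WT replicate 2. In mock lhp1 5 of the 13 were higher and none lower (median 0.16), against 11.1% and 14.4% of all tested genes. The caleosin gene RD20 had 13.5, 10.9 and 10.8 CPM in mock lhp1 and 0.586, 6.61 and 0.528 CPM in mock WT, with mock WT replicate 2 in between. Its change was 2.15 ± 0.63 (edgeR adjusted p = 0.0287), a call lost without any 1 mock lhp1 library or mock WT replicate 3, and the change was 4.39 without mock WT replicate 2. GOLS1 (0.79), ABI5 (0.78) and RD26 (0.54) also lost their calls without any 1 mock lhp1 library or mock WT replicate 3, GOLS1 and RD26 without mock WT replicate 1 too, GOLS1 without JA WT replicate 3, RD26 without JA WT replicate 1, and ABI5 in every such fit but the one without mock WT replicate 1. ERD14 (0.38 ± 0.11) lost its call without mock lhp1 replicate 1 or 2. The abscisic acid marker RAB18 had 0.539, 1.31 and 1.14 CPM in mock lhp1 and 0.419, 0.759 and 0.113 CPM in mock WT (1.20 ± 0.52, edgeR adjusted p = 0.117). Dropping mock WT replicate 2 gave 1.92 with an edgeR adjusted p of 0.0207. After jasmonate it differed by −1.15 ± 0.67 (edgeR adjusted p = 0.288).

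**Figure D4:**
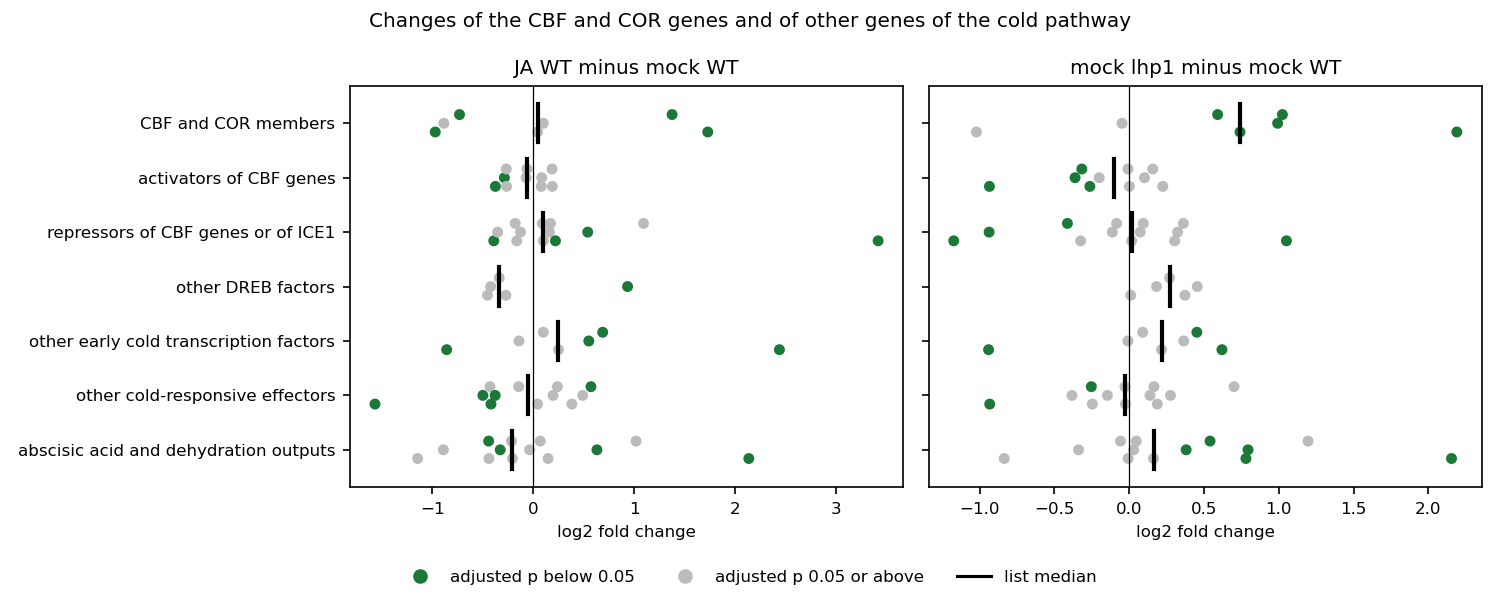
Log2 fold changes of the tested genes of the CBF and COR set and of 6 lists of the cold pathway, without the clock, marker and label check lists, in JA WT (left) and in mock lhp1 (right), both against mock WT; points are genes, green where the edgeR adjusted p was below 0.05, and bars are list medians. Among the lists plotted, the highest point after jasmonate is JAZ1 (3.42), and the highest list median in mock lhp1 is that of the CBF and COR genes (0.74). That median is of 7 tested genes, among them the related neighbours COR47 and ERD10, and KIN1 and KIN2. The lists were chosen with earlier results of these data known, so their order is not a test.

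COR genes are also gated by the circadian clock. The list of 11 clock genes shares CCA1, LHY and RVE8 with the activators above and PRR5, PRR7 and PRR9 with the repressors. The calls of CCA1, PRR9 and PRR7 are therefore counted in both places. In JA WT none of the 11 was higher and 3 were lower (median −0.16), against 8.62% and 7.07% of all tested genes. The largest change was that of ELF4 (−0.94, lost without JA WT replicate 2 or 3 or mock WT replicate 2). In mock lhp1 1 was higher and 1 lower (median 0.07), against 11.1% and 14.4% of all tested genes. These were GI (0.21, lost without JA WT replicate 2, any 1 mock lhp1 library or mock WT replicate 1 or 3) and PRR7. The summed level of the 11 clock genes was 346 to 357 CPM in JA WT, 371 to 385 CPM in mock lhp1 and 382 to 389 CPM in mock WT. Their part in the changes of the COR genes was not tested.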

How the data were processed

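The authors deposited whole-number read counts per gene, not normalized, per the values in the table. Per the submitters' processing notes, the build was TAIR10 and the tools included TopHat, HTSeq and edgeR, with no version or setting stated. A further 3 per-library columns match no sample in the labels and were not used here. Counts of 9 libraries entered 1 edgeR 4.0.16 model (R 4.3.3) with a mean per group, filterByExpr, TMM factors, and two-sided quasi-likelihood tests adjusted by Benjamini-Hochberg over 20986 genes at 0.05. The labels' design text calls the libraries biological replicates, and replicates of a group differed by more than sampling noise (chi-square per degree of freedom 2.47 to 37.9). DESeq2 1.42.0, other scalings, no filter, only the compared groups, a replicate block and leaving out each library were alternatives. Centred profiles used log2 CPM with a prior count of 2. Gene coordinates, exon lengths and sequences came from RefSeq's TAIR10.1 annotation and genome, which matched 32835 of the 33602 loci, read with Biopython 1.88. Figures were drawn with matplotlib 3.10.9. The 10 members and the other lists (88 genes) were chosen with earlier results of these data known. Named were all 10 members, up to 4 called genes of largest change per list (2 for clock and marker lists), LHP1, VSP2 and JAZ10 as label checks, and ICE1, CAMTA3, MYB15, JAZ1, CBF4, DREB2A and RAB18 whatever their p. Outside this rule, JAZ4, LTI30, ERD14 in mock lhp1 and the further members of the marker lists were named after their values were seen. LHY, RVE8 and PRR5 were named only because they stand in 2 lists.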

Additional observations from a re-analysis of the deposited data

How the results depend on the processing

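For the 7 tested genes in 3 comparisons, 287 of 315 values under 15 alternatives kept their direction and side of the threshold, 8 lost a call, 8 gained one with the same sign and 12 changed sign, of which COR15A after jasmonate without mock WT replicate 2 was also called. Members called numbered 4 to 5 without 1 library in JA WT against mock WT, 3 to 5 in mock lhp1 against mock WT and 3 to 5 in JA WT against mock lhp1. In the last, 5 were called with only the 6 compared libraries. Genes called without 1 library numbered 2332 to 3841, 3181 to 6866 and 7785 to 10316, against 3292, 5344 and 9529. Total-count scaling moved all log2 changes by a median of −0.12 after jasmonate, 0.15 in mock lhp1 and −0.27 between JA WT and mock lhp1. It took the share of calls that were higher to 28.6%, 72.9% and 21.4%, against 55.0%, 43.4% and 55.3%, and changed no call of the 7 genes.

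Signs turned for CBF2, COR15A and RD29A, none of them called in the comparison concerned with all libraries. Without 1 library, CBF2 after jasmonate ranged from −0.163 (without mock WT replicate 2; −0.0858 without JA WT replicate 2) to 0.472, and COR15A from −1.38 to 1.10 (without mock WT replicate 2). RD29A ranged from −0.364 to 0.236 after jasmonate, from −0.193 to 0.109 in mock lhp1 and from −0.319 to 0.281 between JA WT and mock lhp1. With total counts CBF2 after jasmonate was −0.0160, and RD29A was −0.0777, 0.102 and −0.179 in the 3 comparisons. The cause was not tested.

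Same-numbered libraries of different groups correlated at −0.0766 to 0.215 in their deviations from the group means, above 0.1 in 2 of 9 pairs. Both of these joined JA WT and mock WT, at 0.215 for replicate 1 and 0.133 for replicate 3. Libraries with different numbers correlated at −0.201 to 0.105. The labels name no pairing, and the main model did not pair the samples by number. With the replicate block 4, 5 and 4 members were called, the added one being KIN1 in JA WT against mock lhp1 (0.68, edgeR adjusted p = 0.0477), and 3425, 5801 and 9653 genes. Depth limits CBF1, CBF3 and COR15B, for which 3 counts are 0.104 to 0.151 CPM in a library.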
